A study of Mus musculus with 8 samples.

Results

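Dendritic cells labelled as myeloid were sorted from the bone marrow of 4 mice, and their RNA was measured on 4 Affymetrix mogene 1.0 ST arrays, 1 per mouse. These 4 arrays, chosen by their titles alone, are 4 of the series' 8. The other 4 hold classical dendritic cells from the spleen of the same mice. The 8-week-old donors of both groups carried the genotype CX3CR1-gfp/+, in which green fluorescent protein takes the place of 1 allele of the fractalkine receptor gene Cx3cr1, and no group had the unmodified genotype. The labels name no treatment and no strain. Marrow came from femur and tibia, cells were sorted straight into lysis buffer, and cDNA was made with a kit for picogram amounts of RNA. Neither the sort markers nor the sex of the mice is stated in the labels. Spleen arrays are used only where the same mouse is followed in both tissues or where marker levels are set side by side.

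Dendritic cells arise in the bone marrow and carry antigen to T cells. They take up proteins through lectin, Fc and scavenger receptors, cut them with endosomal cathepsins, and display the peptides on MHC class II molecules, while Toll-like receptors sense microbes. Among mouse dendritic cells, cDC1 depend on IRF8 and BATF3 and cross-present antigen, and cDC2 carry SIRP alpha and lean on IRF4. Marrow also holds monocytes, macrophages and granulocyte precursors that share many of these genes.

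Each gene was represented by its brightest probe set, and levels are geometric mean intensities over the 4 arrays, with the SD on the log2 scale (n = 4 throughout). An intensity also depends on how well a probe set binds, so an order of genes is an order of brightness and not of RNA copies. Olfactory receptor genes, which these cells are not known to use, gave a floor: the 95th percentile of 1027 such genes, which lay between 89.2 and 106.0 on the 4 arrays. Of 19938 genes, 11704 (58.7%) lay above the floor on all 4 arrays, and that share is the background for every count below. The arrays correlated with Pearson's r between 0.9926 and 0.9958 over genes, which are not independent. Among the 12363 genes whose mean exceeded the mean floor, the median SD was 0.126, and the 90th percentile was 0.237. Replicates 1 and 3 had a narrower spread of log2 intensities (interquartile range 2.908 and 2.933) than replicates 2 and 4 (3.058 and 3.101). Their floors were also higher, at 106.0 and 104.5 against 92.0 and 89.2.

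Levels of marker genes are given first. All 7 markers given for this population lay above the floor on every array, as did 58.7% of all genes. The marker lists were chosen with earlier results of these data known, so their levels are a description and no check of the label. Itgax, the CD11c integrin chain used as a marker of dendritic cells in the mouse, had intensities of 6533, 6433, 6003 and 6686 in replicates 1 to 4. H2-Ab1, the beta chain of the MHC class II molecule I-A, reached 15168, 16414, 14739 and 15146. These 2 genes were as even between mice as most bright genes (SD 0.067 each). Csf1r, the receptor for the macrophage growth factor M-CSF, had a level of 6327 (SD 0.071). Cx3cr1, with 1 working allele, had 3163 (SD 0.10). C1qa, which encodes a chain of the complement starter C1q, had 6195 (SD 0.22), the dead-cell receptor gene Axl 3959 (SD 0.20), and the mannose receptor gene Mrc1 3426 (SD 0.27). All 16 genes of a classical dendritic cell list were above the floor, yet some were dim, among them Spint1 (172), Kit (288.5) and Dnase1l3 (306). Zbtb46, a factor largely restricted to classical dendritic cells and their precursors among immune cells, had only 238, 221, 182 and 218. Flt3, the receptor for the cytokine that drives their growth, was in the brightest 5% of the array at 1967 (SD 0.26).

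Markers of the subsets gave an uneven picture. The cDC2 list had 12 of 13 genes above the floor, led by the lectin genes Cd209a (8152) and Mgl2 (6077) and by Sirpa (6124). The exception was Esam, at 85.4, 72.1, 91.1 and 92.6, which cleared the floor on 1 array. Cd4 (290) and Clec4a4 (150) passed the floor but were dim. In the cDC1 list 11 of 12 genes were above it, including Clec9a, a receptor for dead cells (1128, SD 0.14), and Batf3 (1676, SD 0.077). Xcr1, the chemokine receptor that marks cDC1, was just above it at 108, 172, 119 and 179, and Itgae (CD103) was below it on every array at 58.8 to 67.8. Of the plasmacytoid dendritic cell genes measured, 9 of 12 were above the floor, led by Irf7 (2548), Bst2 (2536) and Tcf4 (916). Siglech, the surface marker of these cells, had 173 (SD 0.073), while Ccr9, Pacsin1 and Lag3 did not pass on all arrays.

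Genes listed for other myeloid cells were present at high level. All 19 measured neutrophil and granulocyte precursor genes were above the floor, and their summed intensity was 26047 to 34688 in the marrow arrays against 3155 to 4070 in the spleen arrays. Macrophage genes (16 of 18 above the floor) summed to 29161 to 43475 in marrow and 6908 to 7865 in spleen. Classical monocyte genes (9 of 10) summed to 17965 to 20470 and 3971 to 4955, and all 13 non-classical monocyte genes to 22106 to 29592 and 12755 to 14676. Lymphocyte and erythroid lists were mixed and their sums lower. Of 13 B cell genes 9 were above the floor, among them the signalling genes Blnk (566) and Cd79b (508) and the B cell factor gene Pax5 (215), while Ms4a1, the gene of CD20, was under it at 67.9 to 90.2. Their sum was 2590 to 2925 in marrow and 3857 to 4340 in spleen. Of 10 T cell genes 6 were above it, none brighter than Il7r (183), and Cd3g was under it at 51.1 to 87.2. Of 9 natural killer cell genes 3 were above it, led by the lectin gene Klrd1 (661), while Ncr1 had 45.8 to 52.95. Of 9 erythroid genes 7 were above it, led by the carbonic anhydrase gene Car1 (657) and the anion exchanger gene Slc4a1 (347), while the erythroid factor gene Klf1 had 52.5 to 63.9. The lists overlap: among others, Csf1r and Cx3cr1 count as monocyte genes, and C1qa, Axl and Mrc1 as macrophage genes. All of these are also markers given for this population. In RNA from a sorted pool, a few cells rich in a transcript and many cells with little of it cannot be told apart, and the part of other cells in the levels below was not tested.

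Housekeeping genes of translation filled most of the top of the profile. Eef1a1, the elongation factor that brings tRNA to the ribosome, was brightest at 18155 (SD 0.012), and 10 genes of ribosomal proteins, among them Rps12 (14320) and Rps14 (13718), were among the 20 brightest genes named (small RNAs were counted but not named). Between them stood genes of lysosomes and of antigen display. Psap, the precursor of the saposins that help break down lipids in lysosomes, had 15867, 16353, 15337 and 15568. H2-Ab1, H2-Eb1, Cd74 and H2-Aa were all among the 20 brightest genes named, as was Cst3, the cathepsin inhibitor cystatin C (11638). Laptm5, which encodes a lysosomal membrane protein of blood cells, had 13058 (SD 0.048). A probe set annotated as Baiap2l1 also reached 13496; its entry lists ribosomal RNA sequences, and it was not counted as that gene.

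Surface receptors were the class most crowded toward the top. Of 557 receptor genes in 13 families, 357 (64.1%) were above the floor, close to the 58.7% of all genes, but 87 (15.6%) lay in the brightest 5% of the array. The corresponding shares in the brightest 5% were 7.6% (35 of 461) for secreted proteins and 4.3% (21 of 486) for transcription factors. The plot of the 20 brightest genes of each class gives every array.

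**Figure D1:**
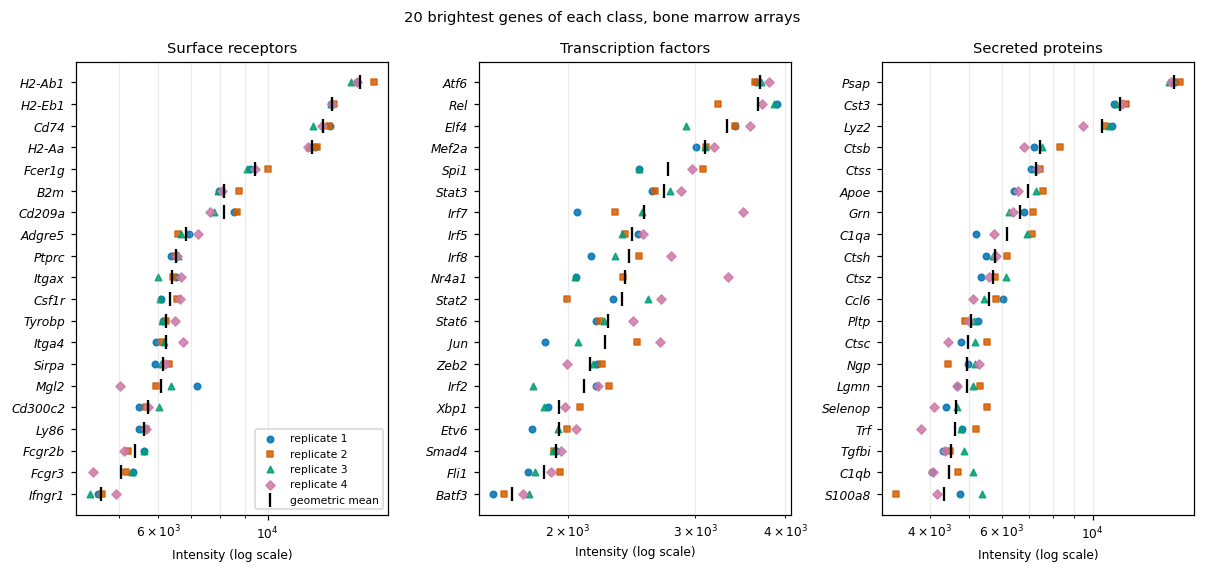
Intensities (log scale, no unit) of the 20 brightest surface receptor, transcription factor and secreted protein genes on the 4 bone marrow arrays; coloured symbols are single arrays and the black bar is their geometric mean. The MHC class II genes H2-Ab1, H2-Eb1, Cd74 and H2-Aa are the 4 brightest receptors, the transcription factors end at 3691 for Atf6, and Irf7 and Nr4a1 are set apart by a high replicate 4.

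Antigen-presenting molecules led the receptors. H2-Eb1, the beta chain of I-E, was the steadiest of the 20 brightest receptor genes, at 13413, 13644, 13452 and 13496 (SD 0.011). Cd74, the invariant chain that guards the class II groove, had 13352, 13285, 12348 and 12863. H2-Aa, the partner chain of H2-Ab1, had 12491, 12580, 12136 and 12043. B2m, the light chain of MHC class I, followed at 8171 (SD 0.068). In this family 16 of 22 genes were above the floor, and beyond these 5 the next, H2-Q5, was at 1041. Several class I genes share sequence and may share signal, so their single levels are uncertain.

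Receptors for antibodies and sugars came next. Fcer1g, the signalling chain shared by activating Fc receptors, had 9214, 10016, 9094 and 9444. The inhibitory IgG receptor gene Fcgr2b stood at 5389 (SD 0.071), its activating counterparts Fcgr3 at 5048 (SD 0.13) and Fcgr4 at 4401 (SD 0.10), and the high-affinity receptor gene Fcgr1 at 1281 (SD 0.27). Cd209a, a mouse relative of DC-SIGN, was the brightest lectin gene at 8555, 8655, 7791 and 7655. Mgl2, a galactose-binding lectin of cDC2 and macrophages, had the largest spread of the 20 brightest receptor genes, at 7200, 5932, 6370 and 5013. Its highest and lowest arrays differed 1.44-fold, replicate 1 against replicate 4. Clec12a (3802), the beta-glucan receptor gene Clec7a (3691) and Clec10a (2817) were also bright, and 41 of 70 lectin genes were above the floor.

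Paired immune receptors held more genes in the brightest 5% than any other of the 35 families, by count and not by share. Of 56 paired immune receptors and costimulators, 49 were above the floor and 18 were in the brightest 5%. The share was larger for interferon regulatory factors (4 of 8) and for Toll-like and lipopolysaccharide receptors (6 of 14). Tyrobp, the adaptor DAP12, had 6236 (SD 0.042), Sirpa, the receptor for CD47, 6124 (SD 0.040), and Cd47 itself 4374 (SD 0.096). Ptprc, the leukocyte phosphatase CD45, had 6369, 6532, 6588 and 6565. Among integrins, Itga4 (6230), which pairs with beta chains to bind VCAM-1, lay beside Itgax (6409). Adgre5, the adhesion receptor CD97, had 6844 (SD 0.059), and its relatives Adgre4 (4569) and Adgre1, the gene of F4/80 (2982), were dimmer.

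Among sensors of microbes, all 14 Toll-like and lipopolysaccharide receptor genes measured were above the floor. Ly86 (MD-1), the partner of the RP105 receptor, was brightest at 5604 (SD 0.023), and Cd180, which encodes RP105, stood at 2453. Tlr1 (3353) and the nucleic acid sensors Tlr9 (3166), Tlr8 (2244), Tlr13 (1688) and Tlr7 (1163) were bright. Tlr4 (294), the lipopolysaccharide receptor, its partner Ly96 (137) and Tlr12 (153) were dim.

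Receptors for growth factors, cytokines and chemokines held a few bright genes each. Of 50 growth factor receptor genes, 36 passed the floor and 5 were in the brightest 5%. Csf1r had 6090, 6560, 6043 and 6639. Notch2, which spleen cDC2 need to mature, had 4447 (SD 0.10), and Flt3 lay below both at 1967. Of 50 cytokine receptor genes, 33 passed the floor and 12 were in the brightest 5%, headed by Ifngr1 (4606), the interferon gamma receptor chain, Il10rb (4482) and Il6ra (3942). Chemokine receptors split into 3 bright genes and a dim rest. Ccr2, which lets monocytes leave the marrow, had 4420, 5307, 4290 and 4169. Cxcr4, which holds cells in the marrow, had 4166 (SD 0.27), and Cx3cr1 had 3163. The fourth, Cxcr3, was at 627, Ccr7, which guides mature dendritic cells to lymph nodes, was at 228 (SD 0.11), and 11 of 22 genes of the family were above the floor. Among scavenger and dead-cell receptors, Lrp1 (4531), Axl (3959) and Cd68 (3790) were brightest, and 15 of 19 passed.

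**Figure D2:**
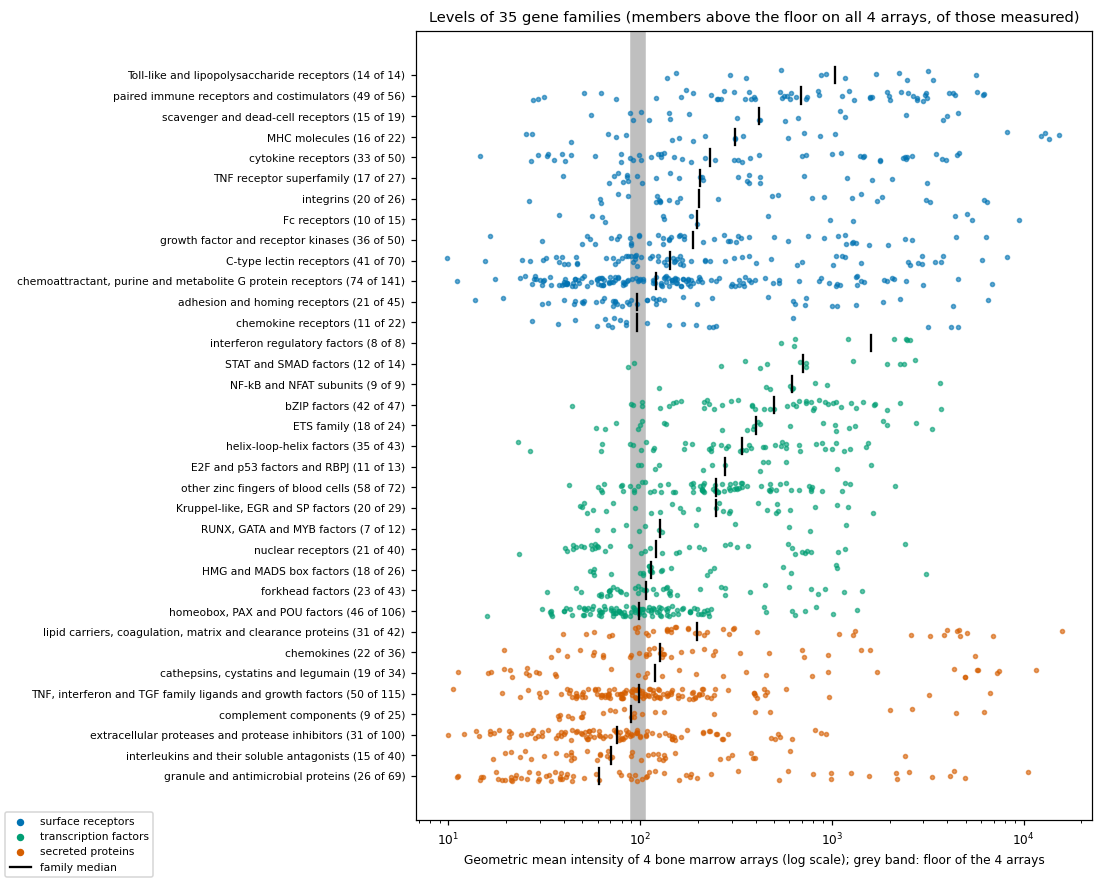
Geometric mean intensity over the 4 bone marrow arrays (log scale) of every gene of 35 families, 1 point per gene; black bars are family medians, the grey band spans the floors of the 4 arrays (89.2 to 106.0), and the labels give members above the floor on all arrays. All measured interferon regulatory factors (8), NF-kB and NFAT subunits (9) and Toll-like and lipopolysaccharide receptors (14) stand above the floor. Most granule proteins, proteases and interleukins lie in or under it.

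Transcription factors were dimmer at the top and packed closely there. Over the whole class their median level was 188.6, against 166.2 for receptors and 96.4 for secreted proteins. Of 486 factor genes, 328 (67.5%, against 58.7% of all genes) were above the floor, and the 20 brightest spanned only 3691 to 1676. In 16 of the 19 steps between neighbours in that order, the difference was smaller than the larger SD of the pair, so the order within short stretches is not resolved. The same held for 15 of 19 steps among secreted proteins and 11 of 19 among receptors.

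Atf6, a sensor of unfolded protein in the endoplasmic reticulum, was the brightest at 3645, 3624, 3695 and 3801. Rel, the c-Rel subunit of NF-kB, followed at 3894, 3223, 3860 and 3717, with replicate 2 lowest. All 9 NF-kB and NFAT genes were above the floor; Rela (601) and Relb (452), which rises as dendritic cells mature, were far dimmer than Rel. Elf4 (3316, SD 0.13, but 574 with its probe sets averaged) and Spi1, the gene of the myeloid master factor PU.1 (2508, 3073, 2508 and 2970), led the ETS family. Mef2a (3096, SD 0.033) and Stat3, which transmits the FLT3 signal in dendritic cell growth (2720, SD 0.064), were even between mice.

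All 8 interferon regulatory factors measured were above the floor, and 4 of them lay in the brightest 5%. Irf7, the amplifier of type I interferon, had 2058, 2323, 2529 and 3489, so that replicate 4 was highest and 1.70-fold above replicate 1. Irf5 was even at 2452 (SD 0.047). Irf8, which cDC1 and monocytes need, had 2151, 2510, 2321 and 2775, whereas Irf4, tied to cDC2, was at 533, 644, 375 and 682. Irf2 (2103), Irf9 (1219), Irf1 (639) and Irf3 (636) were the other members measured.

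Further factors of myeloid cells were bright. Zeb2, which opposes the cDC1 fate, had 2194, 2228, 2165 and 1995. Nr4a1, an immediate early nuclear receptor that non-classical monocytes require, had 2049, 2380, 2047 and 3333, the widest spread among the 20 brightest factor genes (SD 0.33), with replicate 4 on top. Jun, a subunit of AP-1, had 1861, 2492, 2068 and 2683. Xbp1 (1944, SD 0.077), the partner of Atf6 in the unfolded protein response, and Batf3, which had 1575, 1633, 1769 and 1733, also lay in the 20. Klf4, a factor of monocytes and some cDC2, was dimmer and uneven at 357, 543, 292 and 773 (SD 0.63). Of the homeobox, PAX and POU genes, many of which pattern tissues in development, 46 of 106 passed the floor (43.4%, against 58.7% of all genes). Nuclear receptors (21 of 40) and forkhead genes (23 of 43) passed at shares near that of all genes.

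Secreted and lysosomal proteins held a bright few, while their class median was the lowest at 96.4. Of 461 genes, 203 (44.0%) were above the floor, below the 58.7% of all genes, and 35 were in the brightest 5%. This count depends on where the floor is drawn: it was 134 with the 99th percentile of the olfactory receptor genes and 306 with vomeronasal receptor genes in their place.

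Cathepsins and cystatins, the proteases of endosomes and their inhibitors, held 9 genes in the brightest 5%. Cst3, an inhibitor, had 11261, 12092, 11398 and 11821. Ctsb (7441, SD 0.13) and Ctss, the cathepsin that trims the invariant chain in dendritic cells (7070, 7460, 7276 and 7333), came next. Ctsh (5790), Ctsz (5701), Ctsc (4952), the asparagine endopeptidase gene Lgmn (4924) and Ctsa (4316) were all in the brightest 5%, and 19 of 34 genes of this family were above the floor. Ctsl, the cathepsin of thymic epithelium and macrophages, was at 272 (SD 0.20).

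Lipid carriers, matrix and clearance proteins, the family of Psap, held 10 genes in the brightest 5%, and complement held 4. Apoe, a lipid carrier of macrophages, had 6436, 7566, 7281 and 6589. Pltp (5058) and the iron carrier transferrin, Trf (4616, SD 0.19), were also bright. The 3 genes of C1q were the brightest complement genes, with C1qa at 5197, 7121, 6927 and 5744, C1qb at 4064, 4693, 5094 and 4072, and C1qc at 2074, 3512, 2880 and 2232. On these arrays the 3 chains moved alike, with replicates 2 and 3 above replicates 1 and 4. Most other complement genes were not detectable over the floor (9 of 25 above it).

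Granule proteins split between a bright few and an undetected majority (26 of 69 above the floor). Lyz2, lysozyme of myeloid cells, had 11147, 10722, 10985 and 9462. Ngp and S100a8, which belong to neutrophils and their precursors, also ranked among the 20 brightest secreted genes. Ngp had 4964, 4425, 5170 and 5270, and S100a8 4733, 3310, 5367 and 4167, with replicate 2 lowest in both. In the spleen arrays the same genes lay at 119 to 170 and 117 to 202.

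Signals to other cells were mostly dim. Grn, progranulin (6637, SD 0.090), and Tgfb1 (3222, SD 0.063) led the growth factors, 50 of 115 of which passed the floor. Ccl6 was the brightest chemokine gene at 6038, 5804, 5418 and 5106, well above Ccl3 (1586), Cxcl16 (1415) and Cxcl9 (950). Among 40 interleukins and antagonists, 15 passed. Il1b, an inflammatory cytokine, had 2289, 2256, 2631 and 2463, while Il6 (16.2 to 18.5) and Il10 (18.1 to 26.3) were under the floor on every array. Tnf was at 247 (SD 0.17). Costimulatory genes that rise on maturation were present at middling level, with Cd86 at 1121 (SD 0.21), Cd40 at 714 (SD 0.15) and Cd80 at 393 (SD 0.17).

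Spread between the 4 mice was small for most genes and large for a few. Of the 12363 genes above the mean floor, 80 had an SD of at least 0.5 and 14 of at least 1. The 30 with the largest SD reached from 3.15 for Xist to 0.748 for Prg2; the next, Xcl1, stood at 0.730. They were chosen for this spread, so their values are a description. Replicate 2 held the highest value for 18 of the 30 and replicate 4 the lowest for 22. Over all 12363 genes, the same arrays held the highest value for 3151 and the lowest for 2671. Leaving out either array changed the choice most: 19 of the 30 remained without replicate 2, and 19 without replicate 4.

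**Figure D3:**
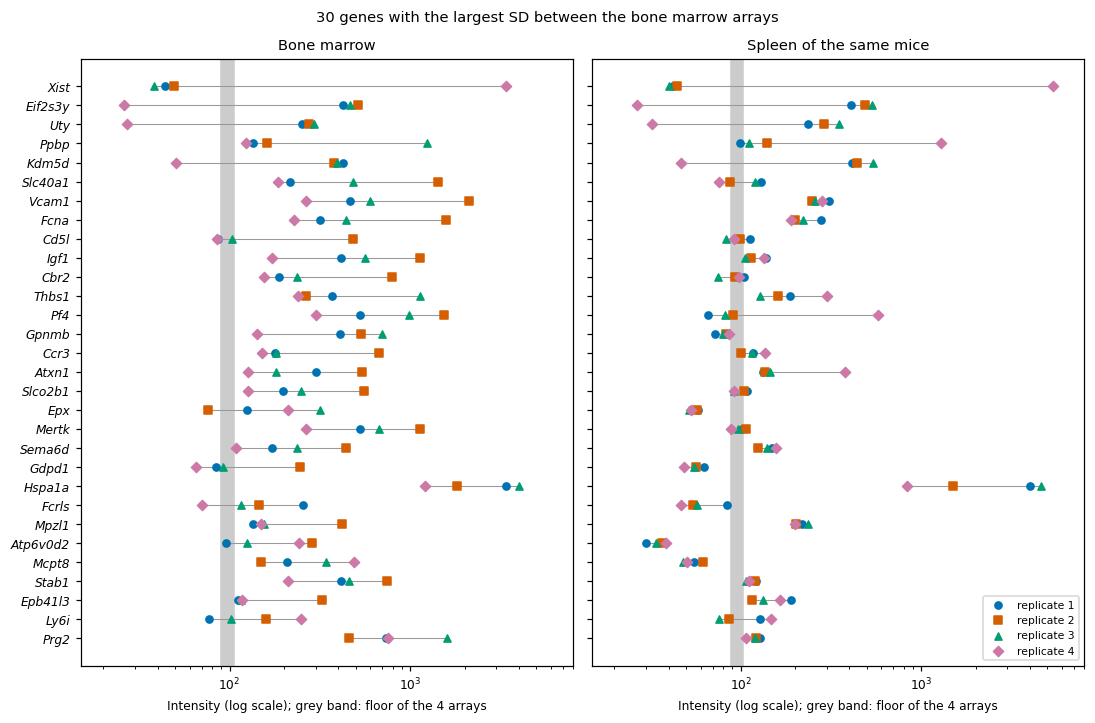
Intensities (log scale) of the 30 genes with the largest SD between the bone marrow arrays, ordered by SD, on the 4 bone marrow arrays and on the 4 spleen arrays of the same mice; symbols are single arrays and the grey bands span the floors. Replicate 2 is highest for 18 genes in marrow. In both tissues Xist is highest and the Y-linked genes are lowest in mouse 4, and Hspa1a ranks the 4 mice alike.

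A first group was high in replicate 2 and has known roles in resident macrophages. Slc40a1, the iron exporter ferroportin, had 216, 1421, 481 and 184. Vcam1, the adhesion ligand of marrow macrophages and stroma, had 464, 2128, 599 and 265. Fcna, a ficolin, had 317, 1579, 442 and 228. In these 3 genes replicate 2 was highest, replicate 3 next and replicate 4 lowest. Cd5l, a protein secreted by macrophages, was above the floor on 1 array, at 86.6, 484, 103 and 84.95. Mertk, the receptor for dying cells, had 530, 1135, 672 and 264, and Igf1, insulin-like growth factor, 413, 1126, 563 and 171. Stab1 (414, 744, 460 and 211), a scavenger receptor, kept to the same order. In spleen replicate 2 did not stand out: Vcam1 had 309, 249, 258 and 283, and Slc40a1 had 129.9, 87.6, 120.4 and 75.9. Mertk (98.1), Cd5l (95.8) and Slc40a1 lay about the spleen floors of 88.0 to 103.2, where a difference would hardly be detectable.

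Counts of list genes that are highest or lowest on an array cover genes whose mean is above the mean floor. Of all 12363 such genes, 21.3%, 25.5%, 20.4% and 32.8% were highest and 29.6%, 21.9%, 26.9% and 21.6% lowest in replicates 1 to 4. Of 17 macrophage genes, which include several of those above, 16 were highest in replicate 2 and 11 lowest in replicate 4. Their median deviation from each gene's mean was 0.36 log2 in replicate 2 and -0.27 in replicate 4. The highest array exceeded the lowest 1.37-fold for C1qa and 1.22-fold for Adgre1, against 8.03-fold for Vcam1. Over the 16 genes of classical dendritic cells, median deviations were -0.05 to 0.05. In 13 genes replicate 2 was at least 2-fold above each other array, namely Cd5l, Ccr3, Fcna, Vcam1, Cbr2, Slc40a1, Epb41l3, Mpzl1, Gdpd1, Slco2b1, Kcnj10, Slc7a8 and P2ry13; the last 3 are outside the 30. Whether the number of macrophages in the sorted cells differed was not tested.

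Neutrophil genes went the other way in replicate 2. Of 19 genes, 16 were lowest there (21.9% of all genes were), and the median deviation was -0.27, against 0.01, 0.07 and 0.14 in replicates 1, 3 and 4. Camp, the cathelicidin gene, had 4414, 3052, 4979 and 4400, and Lcn2, a siderophore-binding protein, 2123, 1707, 2529 and 2358. Csf3r, the G-CSF receptor gene, did not share this order (2325, 2394, 2459 and 2225).

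A second set of genes, listed for platelets and megakaryocytes, was mostly highest in replicate 3. Of this list, only Ppbp and Pf4 were among the 30 genes of largest spread. Ppbp, a platelet chemokine, had 135, 160, 1233 and 124, 7.70-fold above the next array. Of 8 platelet and megakaryocyte genes, 7 were highest in replicate 3 (20.4% of all genes were), with a median deviation of 0.51. Several of these were near the floor, with Gp9 at 116 to 171, Clec1b above it on 3 arrays and Gp5 on 1. Treml1, a receptor of platelet granules, had 262, 217, 365 and 199, and Itga2b, the platelet integrin chain, 144, 129, 235 and 134. Thbs1, which platelets and monocytes both make, had 371, 266, 1134 and 239. Pf4 was the exception, at 529, 1530, 989 and 302, with replicate 2 on top as for the macrophage genes. In spleen it was mouse 4 that stood out, with Ppbp at 1280 against 100 to 140 and Pf4 at 575 against 65.9 to 90.2.

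Eosinophil and basophil genes also differed. Prg2, the major basic protein of eosinophil granules, had 733, 459, 1607 and 751, and Epx, eosinophil peroxidase, 125, 75.9, 317 and 210. Mcpt8, a basophil protease, had 207, 149, 341 and 490. Replicate 2 was lowest in all 3, and replicates 3 and 4 were above replicates 1 and 2. Of the 9 genes of this list with a mean above the mean floor, 6 were highest in replicate 3 and 7 lowest in replicate 2. Ccr3, the eotaxin receptor gene, was unlike them at 179, 670, 180 and 152. Mast cell and basophil receptor genes Fcer1a (34.1 to 45.6) and Ms4a2 (21.3 to 26.2) were under the floor.

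Interferon-stimulated and cell division genes were highest in replicate 4. Of 15 interferon-stimulated genes, 11 peaked there, with a median deviation of 0.34. Ifit2, an antiviral protein induced by interferon, had 723, 672, 709 and 1234. Ifit3 had 1776, 2117, 1842 and 2850, and Irf7, listed with them, was also highest there. Of 18 cell division genes, all above the floor, 12 were highest in replicate 4 (32.8% of all genes were) and 13 lowest in replicate 1 (29.6% of all genes were). Mki67, the proliferation antigen, had 821, 1252, 970 and 1324, and Plk1, a mitotic kinase, 392, 668, 362 and 630. In both, replicates 2 and 4 were above replicates 1 and 3, which is also how the arrays' interquartile ranges and floors fell; the part of that array difference was not tested. Non-classical monocyte genes had 9 of 13 highest in replicate 4, among them Ace (3180, 3983, 3470 and 4594), which encodes angiotensin-converting enzyme.

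**Figure D4:**
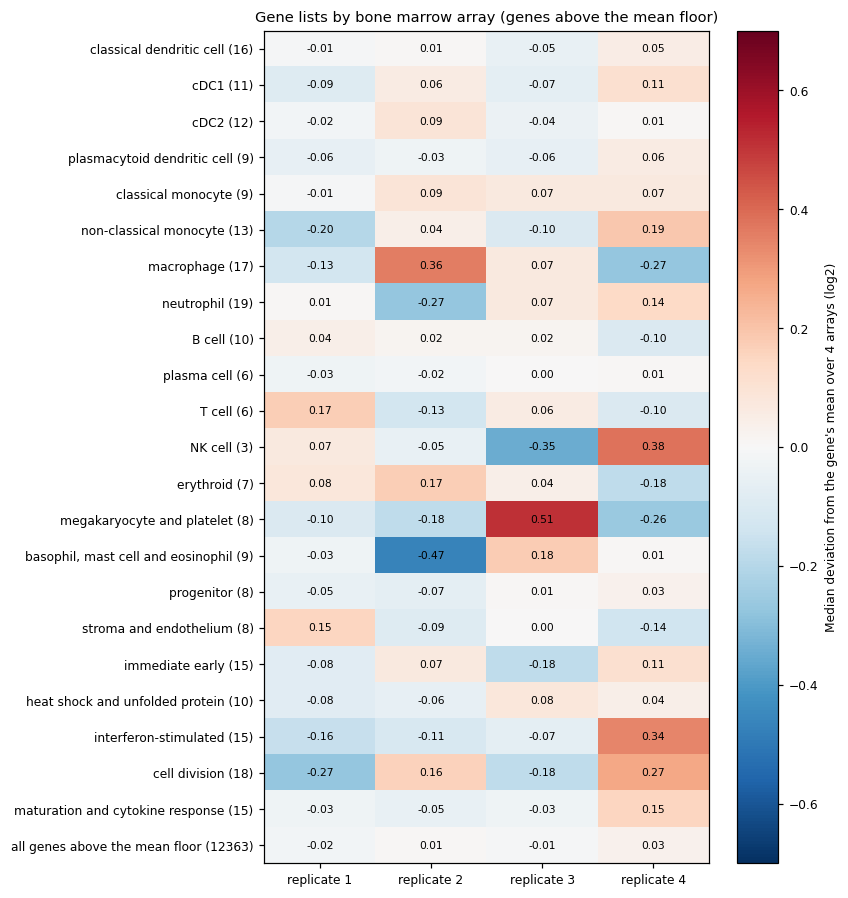
Median deviation (log2) of the genes of each list from their own mean over the 4 bone marrow arrays, by array, over genes whose mean is above the mean floor, with their number in brackets and all such genes in the last row. The macrophage list stands at 0.36 in replicate 2 and -0.27 in replicate 4, the neutrophil list at -0.27 in replicate 2, and the platelet list at 0.51 in replicate 3; classical dendritic cell genes stay between -0.05 and 0.05.

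Because each mouse gave a marrow and a spleen array, a difference between mice could be sought in both tissues at once. In a limma fit of tissue plus mouse over the 8 arrays, a moderated F test of the mouse term found 7 of 19938 genes at an adjusted p under 0.05 (0.0351% of those tested), and 573 had an unadjusted p under 0.05. Of the 30 most variable marrow genes, 5 were among the 7. None of the macrophage, platelet or eosinophil genes above was among them. The test seeks differences shared by both tissues, so it cannot tell whether these genes differ between mice in marrow alone. Several had spleen levels about or under the spleen floors, such as Mertk (98.1), Cd5l (95.8) and Epx (55.1). In data with changes simulated in both tissues of 1 mouse, the fit recovered only 53% of differences of 1 log2 unit. A gene that did not pass may therefore still differ.

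Of the 7 genes, 5 lie on the sex chromosomes and set mouse 4 apart. Xist, the RNA that silences an X chromosome, had 43.6, 49.2, 38.2 and 3400 in marrow and 42.1, 44.4, 40.4 and 5340 in spleen (adjusted p = 2.22e-08, limma). Eif2s3y, a Y-linked translation factor gene, had 422, 512, 464 and 26.0 in marrow and 406, 491, 533 and 26.6 in spleen (adjusted p = 5.16e-08, limma). Uty (adjusted p = 8.8e-07, limma) and Kdm5d (adjusted p = 4.25e-06, limma), Y-linked genes of the histone demethylase family, were likewise low only in mouse 4. Xlr, an X-linked lymphocyte gene that was under the floor in 3 of 4 marrow arrays, was highest in mouse 4 in both tissues (adjusted p = 0.000131, limma). Mouse 4 thus had the pattern of sex-linked genes of a female and the other mice that of males, though the labels state no sex. Replicate 4 was the only marrow array with the female pattern, and what part of its other differences goes with sex was not tested.

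The other 2 genes were high in mice 1 and 3 and low in mice 2 and 4. Hspa1a, an inducible HSP70 chaperone, had 3402, 1819, 3982 and 1209 in marrow and 3994, 1503, 4592 and 836 in spleen (adjusted p = 0.00199, limma). Both tissues thus ranked the mice alike, with mouse 3 highest and mouse 4 lowest. The call was lost with each array centred on its median (adjusted p = 0.0631, limma) and without mouse 4 (adjusted p = 0.0693, limma), and the range over all alternatives was 6.75e-06 to 0.0693. A probe set shared by Hspa1a and its near copy Hspa1b gave the same order, with 1916, 1128, 2804 and 885.5 in marrow and 2439, 1076, 3219 and 442 in spleen, so which copy carries the signal is uncertain. Snord14e, a small nucleolar RNA that lies within Hspa8, was named because it passed the test. It had 3850, 1739, 4208 and 1937 in marrow and 4699, 2705, 4643 and 2562 in spleen (adjusted p = 0.0372, limma), and was lost under 5 of 9 alternatives. Its host gene Hspa8 was steadier, with 7143, 6543, 7682 and 6915 in marrow and 8142, 6797, 7552 and 7147 in spleen. In both tissues Hspa8 was higher in mice 1 and 3 than in mice 2 and 4. Other chaperone genes did not pass. Dnajb1, a co-chaperone of HSP70, was even in marrow at 669, 651, 789 and 684, but in spleen had 1074, 602, 1051 and 472, with mice 1 and 3 above mice 2 and 4 as for Hspa1a. Hsp90aa1 had 2443, 2865, 2840 and 2825 in marrow, where mouse 1 was lowest, and 3402, 2782, 3627 and 2646 in spleen, where mice 1 and 3 were again higher. Hspa5, the chaperone of the endoplasmic reticulum, was even in both (SD 0.10 and 0.084). In marrow the floors were higher on the arrays of mice 1 and 3, and in spleen on those of mice 1, 2 and 4 (103.2, 99.6 and 102.2, against 88.0 for mouse 3); their part in these values was not tested.

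**Figure D5:**
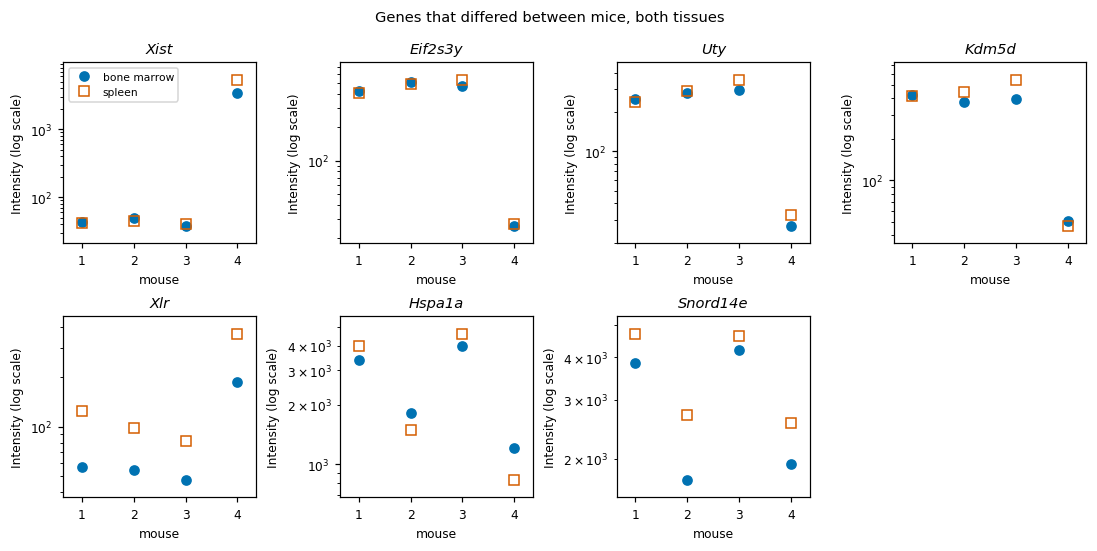
Intensities (log scale, a separate axis for each gene) by mouse of the 7 genes that passed the test for a difference between mice in both tissues; filled circles are marrow and open squares spleen. Mouse 4 alone is high for Xist and Xlr and low for Eif2s3y, Uty and Kdm5d, whereas Hspa1a and Snord14e are high in mice 1 and 3 and low in mice 2 and 4.

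The promoters of the HSP70 pair are shown because, of the called genes outside the sex chromosomes, Hspa1a had the widest range between mice. They are the 250 bases before the gene start on the minus strand, from RefSeq (GRCm38.p6), for Hspa1a at chr17:34972157-34972406 and for Hspa1b at chr17:34959239-34959488. Capitals mark the match to GAANNTTC, a pair of the inverted units to which heat shock factors bind.
Hspa1a: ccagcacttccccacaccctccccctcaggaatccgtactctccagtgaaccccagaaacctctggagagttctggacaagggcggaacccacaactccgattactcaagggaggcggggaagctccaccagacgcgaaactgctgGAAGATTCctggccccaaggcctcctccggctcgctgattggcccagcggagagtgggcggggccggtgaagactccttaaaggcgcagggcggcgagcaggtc
Hspa1b: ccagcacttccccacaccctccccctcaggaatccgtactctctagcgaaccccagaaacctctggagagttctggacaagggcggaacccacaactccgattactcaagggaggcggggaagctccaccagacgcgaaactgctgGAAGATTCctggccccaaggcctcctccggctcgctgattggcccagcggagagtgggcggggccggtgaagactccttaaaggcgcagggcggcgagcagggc
The stretches were the same at 247 of 250 aligned positions, and each held 1 match. Its first base lies 104 bases before the gene start. The motif reads the same on both strands and occurred in 7.86% of 32851 RefSeq promoter windows of 300 bases, so a match is common. A stricter form of 3 such units, on either strand, was in 0.603% of windows and in neither of these.

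The other genes with the smallest p-values did not pass. Per1, a clock gene that also answers glucocorticoids, had 1087, 564, 999 and 726 in marrow and 751, 429, 704 and 505 in spleen (adjusted p = 0.122, limma). Its order of mice 1, 3, 4 and 2 was the same in both tissues. Eps8l1 had 148, 176, 87.3 and 153 in marrow, with mouse 3 lowest there as in spleen (adjusted p = 0.0827, limma).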

How the data were processed

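The deposited value table gave each probe set 1 linear intensity on each array; per the submitters' processing notes, the authors used Affymetrix Expression Console 1.4. How probes were corrected, scaled and combined is not stated there or in the labels, and scanner files were not used. Amplification from very small RNA amounts, per the labels' protocols, can add spread between arrays. Of 35556 probe sets, 21789 had exactly 1 gene symbol in the platform annotation and were used, 1621 had several and 12146 none. Of several probe sets of a gene, the brightest over the 8 arrays was kept, which gave 19938 genes, and the log2 of the intensity was taken. The number of arrays, 4 per tissue, limits the precision; there is no read depth.

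A gene was above the floor if it exceeded the 95th percentile of olfactory receptor genes on each of the 4 marrow arrays. The same replicate number marks the same mouse, per the labels (both tissues share an animal number in the sample descriptions), so the mouse term was tested as a replicate block with limma 3.58.1 in R 4.3.3 (lmFit, eBayes, moderated F test), with Benjamini-Hochberg adjustment over all genes, on 8 arrays. The fit was tested on simulated data, with 100 genes of each size changed in both tissues of 1 mouse. It recovered 53% of changes of 1 log2 unit and 93% of changes of 2 log2 units, with 1 false call. Arrays of 1 tissue come from different mice, so spread holds mouse, sort and amplification together. The members, the 35 families in 3 classes and the 24 marker lists were chosen with earlier results of these data known; 4 genes wrongly caught by the families' name patterns were removed after the files were read. Named genes are the 20 brightest of each class and of all genes, the brightest of each family, the 30 with the largest SD, the 10 with the smallest p for the mouse, and list members; other family members named, and Kcnj10, Slc7a8, P2ry13 and Xcl1, were chosen after their values were seen. Alternatives were other floors, quantile normalization, median centring, averaged probe sets and leaving out each replicate. Promoters are RefSeq windows of GRCm38.p6.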

Additional observations from a re-analysis of the deposited data

Results flagged for a closer look

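Among the 120 genes named by rule, 14 had 1 marrow array whose gap to the nearest other array filled most of the gene's range over the 4 arrays. Chance alone would mark about 1 gene in 20. The share of the log2 range taken by that gap is given for each gene. Replicate 4 stood apart for the sex-linked genes, with 0.944 for Xist, 0.936 for Eif2s3y, 0.935 for Uty, 0.944 for Kdm5d and 0.866 for Xlr, and it was the low array for Mmp12, macrophage elastase, at 0.863 (intensities 1194, 1060, 1164 and 499). Replicate 2 stood apart on the high side for Cd5l (0.892), Ccr3 (0.887), Mpzl1 (0.868) and Epb41l3 (0.957). In Epb41l3, a cytoskeletal linker gene, the other 3 arrays lay between 111 and 116 and replicate 2 at 324. Replicate 3 stood apart on the high side for Ppbp (0.889) and on the low side for Irf2 (0.833) and for the peptide transporter gene Slc15a2 (0.868). Replicate 1 was the low array for Rpsa, a ribosomal protein gene, at 0.969, although its whole range was only 1.09-fold. The genes of largest spread were chosen for it, so such gaps among them are not independent of the choice.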

How the results depend on the processing

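The mouse was tested as a replicate block, and 7 genes passed; no fit without the block exists for this question, because the block is the term tested. Leaving out 1 mouse (both arrays) gave 0 to 13 genes, with 0 without mouse 4 (706 at an unadjusted p under 0.05, limma) and 13 without mouse 1; quantile normalization, median centring, averaged probe sets, an intensity trend and leaving out the dimmest 40% of genes gave 5 to 7. Of the 30 most variable genes, 19 to 27 remained when 1 marrow array was left out, and 24 to 30 under the other alternatives. Secreted genes above the floor numbered 134 with the 99th percentile of olfactory receptor genes and 306 with vomeronasal receptor genes, against 203; 204 to 211 passed with 1 array left out. Receptor genes numbered 274 and 451 under these floors, against 357, and transcription factors 254 and 421, against 328. Of each list of 20 brightest genes, 19 or 20 remained under all alternatives run. Levels of the 120 named genes moved by over 1 SD in 12 cases with averaged probe sets and 5 with quantile normalization, and in none with median centring or 1 array left out. Alternatives chosen after seeing the data covered the counts of list genes highest or lowest on an array. The counts in the report changed by under 1.5 times with quantile normalization, median centring or averaged probe sets, with macrophage genes highest in replicate 2 at 13 to 16. The deposited intensities have no detection calls or background values, so a gene under the floor may still be expressed.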

Other observations

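Plasma cell, lymphoid and stromal genes gave values that enter no comparison. Jchain, the chain that joins antibody units, was uneven at 36.5, 60.8, 181 and 113, and passed the floor on 2 arrays. Nkg7, a granule gene of cytotoxic cells, had 276, 113, 142 and 237. Of 8 genes of stroma and endothelium with a mean above the mean floor, 5 were highest in replicate 1 (21.3% of all genes were), while Lepr (25.3 to 29.4) and Emcn (28.5 to 32.4), which mark marrow stroma and vessels, were under the floor on every array. Atxn1 was among the genes of largest spread by 1 probe set (301, 540, 180 and 126), while its other probe set varied less (97.7, 146.5, 117.3 and 104.2), with replicate 2 highest in both.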
